A study of Mus musculus with 21 samples.

Results

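Cardiac muscle genes were followed in RNA of whole right lungs from mice of 3 inbred strains, C3H/HeJ, A/J and C57BL/6. The 10 genes were Myh6, Myh7, Myl7, Myl4, Tnni3, Actc1, Sln, Mb, Fabp3 and Nppa, out of 9082 genes tested. They were chosen by name, with their lower signal in treated lungs known from an earlier look at the same arrays. Their changes against control are therefore given as a description, with a standard error (SE) and no p-value. The 21 Affymetrix arrays each held RNA pooled from 3 to 5 mice of 1 sex. Treated mice had been given bleomycin, a DNA-breaking antitumour drug that injures the lung, through an osmotic minipump, males mostly at 100 mg/kg and females mostly at 125 mg/kg. From A/J there were 2 control arrays, 4 taken 3 weeks after the start of treatment and 2 taken at 6 weeks. From C57BL/6 there were 2 control arrays, 2 at 3 weeks, 1 female array at 6 weeks and 2 of moribund mice without a stated time. From C3H/HeJ there were 2 arrays each for control, 3 weeks and 6 weeks. Each group of 2 held a male and a female pool. The A/J group at 3 weeks held male pools at 80 and 100 mg/kg and female pools at 100 and 125 mg/kg. Neither the treatment of the controls nor how the lung was trimmed from the heart and great veins is stated in the sources used here.

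Cardiac muscle contracts when calcium frees actin from troponin and lets myosin pull on it. Atrial and ventricular muscle cells build these filaments from different versions of the same proteins. In mice a sleeve of cardiac muscle with atrial features continues from the left atrium along the pulmonary veins into the lung, so RNA of whole lung can hold cardiac transcripts. The same transcripts are abundant in the heart, which lies against the lung. Which of these tissues the measured RNA came from was not tested.

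The labelled tissue was borne out by its markers: 6 genes of lung epithelium (Sftpc, Sftpb, Sftpa1, Scgb1a1, Ager and Cldn18) lay at or above the 96.5th percentile of signal on every array. Array medians as deposited ran from 58.4 to 111.2, so values were quantile normalized, and each value below is a normalized intensity on a linear scale unless called log2. The Gapdh signal of the 3′ control probe set over that of the 5′ one, a ratio that rises as RNA degrades, ran from 0.853 to 1.34 on control arrays, from 0.821 to 1.16 at 3 weeks, from 0.803 to 2.08 at 6 weeks and from 0.77 to 0.885 on moribund arrays. Its highest value was that of the C3H/HeJ female array at 6 weeks. Normalized values are relative to the other signal on an array. In whole tissue, fewer muscle cells, less RNA per muscle cell and a changed share of muscle in the sample cannot be told apart. Each array stood for its own pool of mice, and groups of mostly 2 arrays, 1 of each sex, limit the precision. A log2 change of 1 is 2-fold, and a change of 2 is 4-fold.

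The array held 16 probe sets for the 10 genes. Of these, 14 carried 1 gene symbol and 2 were shared by Myh6 and Myh7, the neighbouring cardiac myosin heavy chain genes. Of the 14, 10 passed the filter that removed the dimmest 33.3% of probe sets, 1 for each gene, and all later values are from these. Mb, Myh6, Sln and Myl4 each had a second, dim probe set: it ran from 6.15 to 13.2 for Mb, from 6.58 to 30.6 for Myh6, from 4.25 to 35.9 for Sln and from 10.7 to 62.9 for Myl4 over the 21 arrays. At 3 weeks the dim Mb probe set differed from control on the log2 scale by 0.04 (A/J), 0.12 (C57BL/6) and 0.04 (C3H/HeJ), against −1.15, −2.69 and −2.02 for the bright one. The brighter of the 2 shared myosin probe sets changed by −0.67, −1.12 and −0.75, in the direction of the Myh6 probe set (−1.24, −1.0 and −1.20) in every strain. In A/J the probe set of Myh7 alone changed by 0.17.

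The promoters of 4 of the genes are shown because together they hold a match to each motif found among these genes. RefSeq promoter windows on GRCm38.p6 were held for 9 of the 10 genes, Sln being the exception, and the 250 bases before each start were searched on both strands for 6 motifs. The sequences run 5′ to 3′ on the gene's own strand and end at the base before the start, with motif matches in capitals. The window of Actc1 lies at chr2:114052876-114053125 (minus strand), Myl7 at chr11:5898783-5899032 (minus), Myh6 at chr14:54966608-54966857 (minus) and Nppa at chr4:148000472-148000721 (plus).
Actc1: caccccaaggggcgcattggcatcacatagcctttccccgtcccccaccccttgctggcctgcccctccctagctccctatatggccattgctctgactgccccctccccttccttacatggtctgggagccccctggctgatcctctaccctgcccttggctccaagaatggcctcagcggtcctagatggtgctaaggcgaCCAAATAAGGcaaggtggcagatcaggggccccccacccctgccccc
Myl7: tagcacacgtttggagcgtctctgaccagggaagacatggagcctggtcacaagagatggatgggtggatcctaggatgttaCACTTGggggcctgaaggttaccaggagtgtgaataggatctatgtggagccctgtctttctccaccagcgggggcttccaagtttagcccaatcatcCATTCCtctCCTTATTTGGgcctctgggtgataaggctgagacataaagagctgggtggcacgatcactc
Myh6: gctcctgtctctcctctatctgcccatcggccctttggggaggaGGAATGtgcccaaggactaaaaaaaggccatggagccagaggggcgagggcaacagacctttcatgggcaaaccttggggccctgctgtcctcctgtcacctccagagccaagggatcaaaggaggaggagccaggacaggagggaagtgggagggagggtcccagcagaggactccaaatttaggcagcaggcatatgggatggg
Nppa: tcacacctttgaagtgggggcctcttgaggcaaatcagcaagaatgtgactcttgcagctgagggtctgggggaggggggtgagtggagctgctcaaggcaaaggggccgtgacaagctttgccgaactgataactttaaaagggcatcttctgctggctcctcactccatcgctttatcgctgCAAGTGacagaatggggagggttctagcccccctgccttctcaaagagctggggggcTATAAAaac
The CArG box, the site of serum response factor, matched in Actc1 at 47 to 38 bases and in Myl7 at 61 to 52 bases before the start. It matched in 1.47% of all 32851 promoter windows. CATTCC, the letters of the TEAD site, matched in Myl7, Myh6 and Myh7 and in 12.6% of all windows. CAAGTG, the letters of an NKX2-5 site, matched in Myl7, Nppa and Mb, and in 11.6% of all windows. TATAAA matched in Nppa alone among the 9 genes searched, at 9 to 4 bases before the start, and in 12.4% of all windows. The MEF2 site and AGATAA matched in none of the 9 genes, and in 2.92% and 9.99% of all windows. Overlapping windows of 1 gene count as separate windows in these shares, and a match is a description of letters only.

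The atrial light chains and the myosin heavy chain Myh6 were lower in every strain at 3 weeks. Myl7, the regulatory light chain of atrial myosin, measured 1612 on the male and 1221 on the female A/J control array. At 3 weeks its 4 A/J arrays measured 1001 (male, 80 mg/kg), 784 (male, 100 mg/kg), 1001 (female, 100 mg/kg) and 876 (female, 125 mg/kg), all below both controls, and at 6 weeks it measured 1153 and 1028. In C57BL/6 it measured 1054 and 926 in the male and female control, 286 and 378 at 3 weeks, 396 on the female array at 6 weeks and 221 and 279 in moribund mice. In C3H/HeJ it measured 745 and 924 in control, 506 and 369 at 3 weeks and 812 and 624 at 6 weeks. No treated C57BL/6 array reached its controls, while the C3H/HeJ arrays at 6 weeks overlapped theirs. The log2 change of Myl7 at 3 weeks was −0.61 (SE 0.18) in A/J, −1.54 (SE 0.20) in C57BL/6 and −0.92 (SE 0.20) in C3H/HeJ.

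**Figure D1:**
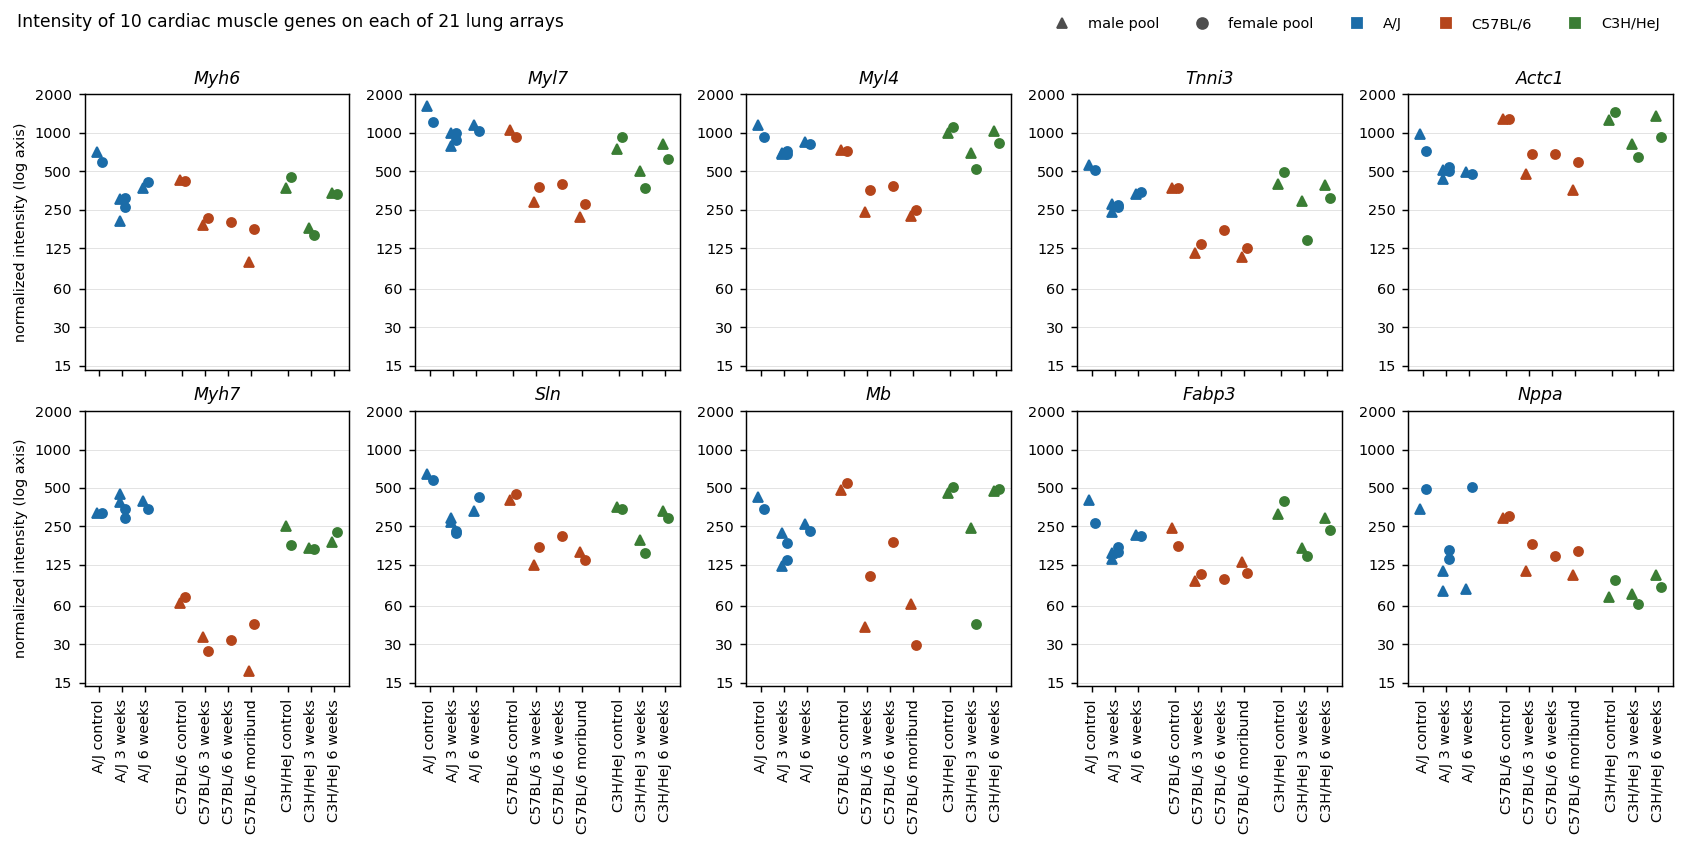
Normalized intensity (log axis) of each of the 10 cardiac muscle genes on the 21 arrays, grouped by strain and stage; triangles are male pools, circles female pools, and each point is 1 array. For Myl7 every treated C57BL/6 array, from 221 to 396, lay below the C57BL/6 controls at 926 and 1054, whereas Myh7 was low in all C57BL/6 arrays and Nppa in all C3H/HeJ arrays.

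Myh6, the fast cardiac myosin heavy chain that adult mouse atria and ventricles both use, measured 712 and 595 on the A/J male and female controls. Its 4 A/J arrays at 3 weeks, in the same order of sex and dose, measured 304, 203, 308 and 263, and the 6 week arrays 370 and 414. It was 426 and 417 in C57BL/6 controls, 191 and 216 at 3 weeks, 201 at 6 weeks and 97 and 176 in moribund mice. The lowest value of all 21 arrays was thus the moribund male pool. The C3H/HeJ values were 372 and 452 in control, 181 and 160 at 3 weeks and 337 and 334 at 6 weeks. The changes at 3 weeks were close to each other, −1.24 (SE 0.18) in A/J, −1.0 (SE 0.21) in C57BL/6 and −1.20 (SE 0.21) in C3H/HeJ.

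For Myl4, the essential light chain of atrial myosin, the difference was smallest in A/J. It measured 1142 and 935 in A/J controls and 679 to 723 on the 4 arrays at 3 weeks, a change of −0.56 (SE 0.15). In C57BL/6 it went from 734 and 723 to 240 and 356 (−1.27, SE 0.17), with 384 at 6 weeks and 223 and 248 in moribund mice. On C3H/HeJ arrays it was 1003 and 1112 in control, 690 and 524 at 3 weeks (−0.80, SE 0.17) and 1039 and 832 at 6 weeks. The treated arrays lay below both controls in each strain at 3 weeks. At 6 weeks they stayed below in A/J, at 842 and 811, and the male C3H/HeJ array lay between its 2 controls.

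The thin filament genes were also lower at 3 weeks in each strain. Tnni3, the cardiac inhibitory troponin, measured 564 and 511 in A/J controls and 239 to 276 at 3 weeks, and 334 and 347 at 6 weeks. The C57BL/6 values were 373 and 371 in control, 115 and 135 at 3 weeks, 174 at 6 weeks and 106 and 126 in moribund mice. In C3H/HeJ it was 395 and 497 in control, 293 and 146 at 3 weeks and 394 and 311 at 6 weeks, so the female array at 3 weeks lay far below the male one. The changes at 3 weeks were −0.99 (SE 0.19), −1.47 (SE 0.22) and −1.04 (SE 0.22) in A/J, C57BL/6 and C3H/HeJ. Without the C3H/HeJ female array at 3 weeks the C3H/HeJ change was −0.55.

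Actc1, cardiac alpha actin, was the 1 gene whose mean in A/J was no higher at 6 weeks than at 3 weeks. It measured 978 and 715 in A/J controls, 439 to 545 at 3 weeks and 495 and 476 at 6 weeks. It was 1275 and 1287 in C57BL/6 controls, 476 and 680 at 3 weeks, 686 at 6 weeks and 356 and 596 in moribund mice. It was 1256 and 1449 in C3H/HeJ controls, 823 and 648 at 3 weeks and 1356 and 932 at 6 weeks. The A/J arrays at 6 weeks stayed within the range of those at 3 weeks, while a C3H/HeJ array at 6 weeks lay between its controls. The changes at 3 weeks were −0.73 (SE 0.20), −1.15 (SE 0.23) and −0.87 (SE 0.23).

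Sln encodes sarcolipin, the atrial inhibitor of the calcium pump of the sarcoplasmic reticulum. It measured 648 and 580 in A/J controls and 222 to 292 at 3 weeks, a change of −1.23 (SE 0.16). On C57BL/6 arrays it was 405 and 448 in control, 124 and 172 at 3 weeks (−1.45, SE 0.18), 210 at 6 weeks and 157 and 136 in moribund mice. The C3H/HeJ values were 354 and 340 in control, 196 and 155 at 3 weeks (−0.93, SE 0.18) and 328 and 292 at 6 weeks. No array of any treated group reached the controls of its strain. The nearest was the C3H/HeJ male array at 6 weeks.

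The largest differences in C57BL/6 and C3H/HeJ were those of Mb, myoglobin, which stores oxygen in cardiac and slow skeletal muscle. It measured 425 and 342 in A/J controls and 224, 123, 184 and 137 on the 4 arrays at 3 weeks. In C57BL/6 it was 480 and 544 in control, 40.6 and 102 at 3 weeks, 188 at 6 weeks and 62.2 and 29.3 in moribund mice. On C3H/HeJ arrays it was 460 and 511 in control, 242 and 43.2 at 3 weeks and 476 and 495 at 6 weeks. Mb was thus the most dispersed of the 10, with male and female pools of a treated group apart by more than 2-fold in 3 groups and C3H/HeJ levels at 6 weeks within the control range. The changes at 3 weeks were −1.15 (SE 0.40), −2.69 (SE 0.46) and −2.02 (SE 0.46) in A/J, C57BL/6 and C3H/HeJ, and the moribund change was −3.15 (SE 0.46). Without the C3H/HeJ female array at 3 weeks the C3H/HeJ change was −0.96, and without the male one −3.09.

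Fabp3, the fatty acid carrier of heart and oxidative muscle, changed by nearly the same amount in each strain. It measured 404 and 268 in A/J controls and 140 to 173 at 3 weeks (−1.01, SE 0.17). The C57BL/6 values were 244 and 177 in control, 94.3 and 106 at 3 weeks (−0.95, SE 0.19), 97.3 at 6 weeks and 132 and 109 in moribund mice. In C3H/HeJ it was 312 and 393 in control, 168 and 146 at 3 weeks (−1.09, SE 0.19) and 291 and 236 at 6 weeks. All treated arrays lay below both controls of their strain.

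Myh7, the slow cardiac myosin heavy chain, which in mice is also a slow skeletal muscle myosin, did not follow the others in A/J. It measured 321 and 319 in A/J controls, 387, 448, 342 and 291 at 3 weeks and 393 and 344 at 6 weeks, so 3 of 4 arrays at 3 weeks and both at 6 weeks lay above the controls. In C57BL/6 its signal was low throughout, 62.8 and 69.8 in control, 34.3 and 26.3 at 3 weeks, 32.4 at 6 weeks and 18.4 and 43.4 in moribund mice. The C3H/HeJ values were 251 and 179 in control, 169 and 166 at 3 weeks and 189 and 226 at 6 weeks. The changes at 3 weeks were 0.17 (SE 0.21) in A/J, −0.83 (SE 0.24) in C57BL/6 and −0.31 (SE 0.24) in C3H/HeJ.

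Nppa encodes atrial natriuretic peptide, a hormone that atrial muscle secretes when stretched. It measured 342 and 489 in A/J controls and 112, 78.2, 163 and 138 at 3 weeks, a change of −1.66 (SE 0.36) and the largest fall of the 10 in that strain. The A/J arrays at 6 weeks split, 81.2 in males and 509 in females, so that the female array exceeded both controls. On C57BL/6 arrays it was 290 and 302 in control, 112 and 182 at 3 weeks (−0.97, SE 0.42), 146 at 6 weeks and 105 and 162 in moribund mice. In C3H/HeJ it stayed between 62.3 and 105 on all 6 arrays, 70.6 and 95 in control and 74.6 and 62.3 at 3 weeks (−0.22, SE 0.42).

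Counted over the genes, 5 of the 10 passed an adjusted p of 0.05 in limma as lower at 3 weeks in A/J, where 0.264% of all genes passed as lower. They were Myh6, Sln, Tnni3, Nppa and Fabp3. In C57BL/6 9 passed, all but Nppa, against 6.01% of all genes, and in C3H/HeJ 7, all but Nppa, Actc1 and Myh7, against 1.11%. In the mean of the 3 strains 9 passed, all but Myh7, against 9.14%. In moribund C57BL/6 mice 9 passed, all but Nppa, against 8.36%. The median log2 change of the 10 at 3 weeks was −1.0 for A/J, −1.21 for C57BL/6 and −0.925 for C3H/HeJ, beside −0.00909, 0.00773 and −0.0305 for all genes, and −1.50 in moribund mice beside 5.35e-05. All arrays lay below both controls at 3 weeks for 9 of the 10 in A/J (12.3% of all genes), 10 in C57BL/6 (28.8%) and 9 in C3H/HeJ (26.7%), and in moribund mice for 10 (28.1%). Comparisons within a strain share its 2 control arrays. Since these contrasts chose the genes, the counts describe them and are no test of them. Single arrays carried many of these calls. Fewer of the 10 passed in A/J without either control, and in C3H/HeJ without either control or the female array at 3 weeks. In C57BL/6 fewer passed without the male array at 3 weeks. Of all genes, too, fewer passed in either direction without the male A/J control, the male C3H/HeJ control or the C57BL/6 male array at 3 weeks. The loss of calls was thus not particular to the 10.

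**Figure D2:**
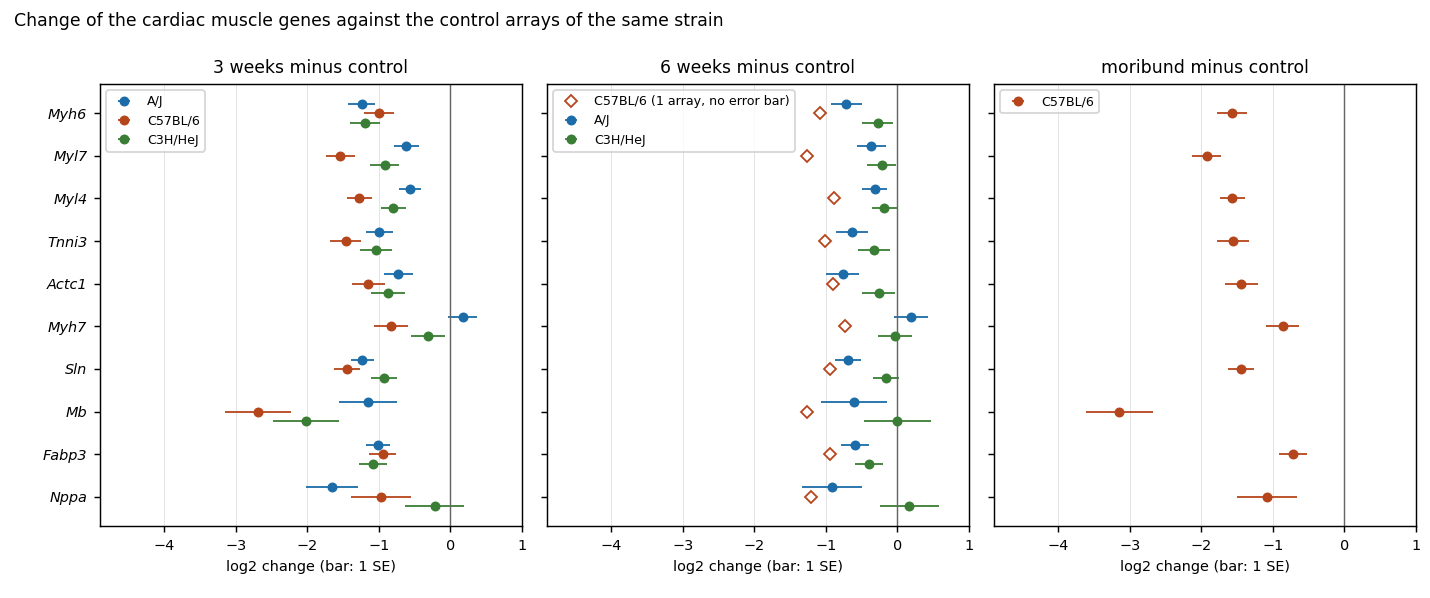
Log2 change of each gene against the control arrays of the same strain at 3 weeks (left), 6 weeks (middle) and in moribund mice (right); points are fitted changes, bars 1 SE, and open diamonds the single C57BL/6 array at 6 weeks, which has no error bar. Mb in C57BL/6 lay farthest from 0, at −2.69 at 3 weeks and −3.15 in moribund mice, and Myh7 in A/J lay at 0.17.

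At 6 weeks the fitted levels of all 10 genes in C3H/HeJ and of 8 of 10 in A/J, all but Actc1 and Myh7, lay nearer to control than at 3 weeks. The share of all genes that lay nearer was not counted. Fewer of all genes passed against control in either direction at 6 weeks than at 3 weeks, 10 against 97 in A/J and 10 against 259 in C3H/HeJ. In A/J the log2 changes ran from −0.91 for Nppa to 0.19 for Myh7, and 8 genes were below both controls on both arrays, as were 19.3% of all genes. In C3H/HeJ they ran from −0.40 for Fabp3 to 0.17 for Nppa, with 4 genes below both controls on both arrays, against 14% of all genes. With limma 0 of the 10 passed at an adjusted p of 0.05 in either strain, where 0.011% and 0% of all genes passed as lower. In A/J and C3H/HeJ 6 and 0 of the 10 had an unadjusted p under 0.05, as had 477 and 419 of all genes in either direction. In C57BL/6 the single female array at 6 weeks lay below both controls for all 10 genes, as it did for 43.5% of all genes, by −0.74 for Myh7 to −1.27 for Mb and Myl7. That difference has no replicate check. Nppa in A/J was set by 1 array, with a change of −1.98 without the female and 0.15 without the male array, and without the female array 1 of the 10 passed in A/J.

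Differences between stages within the treated arrays are given as a description, with 95% confidence intervals and no p-value. The genes were chosen for low signal in treated lungs, the 3 week arrays included, so a higher level at 6 weeks is favoured by the choice itself. In C3H/HeJ all 10 were higher at 6 weeks than at 3 weeks, by 0.28 for Myh7 to 2.02 for Mb (interval 1.04 to 3.00) on the log2 scale. Myh6 was higher by 0.92 (interval 0.47 to 1.37) and Sln by 0.78 (0.39 to 1.16). With limma 0 of the 10 passed at an adjusted p of 0.05, where 0.176% of all genes passed in either direction. At an unadjusted p under 0.05 there were 8 of the 10 and 1244 of all genes. Without the C3H/HeJ male array at 3 weeks Mb (3.09) and Tnni3 (1.20) passed, and without either moribund array Myh6 did (0.92 in each case). The difference of Mb was 0.96 without the C3H/HeJ female array at 3 weeks.

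In A/J 9 of the 10 genes were higher at 6 weeks than at 3 weeks, Actc1 being the exception (−0.04, interval −0.46 to 0.39). Sln was higher by 0.54 (interval 0.21 to 0.88), Myh6 by 0.53 (0.15 to 0.92) and Fabp3 by 0.42 (0.06 to 0.77). By limma 0 of the 10 passed after adjustment, where 0.022% of all genes passed. At an unadjusted p under 0.05 there were 3 of the 10 and 435 of all genes. Without the A/J male array at 6 weeks 1 gene passed. Between moribund C57BL/6 mice and C57BL/6 mice at 3 weeks, 0 of the 10 and 0% of all genes passed by limma, while 1 of the 10, Myh6 (−0.57, interval −1.02 to −0.13), and 878 of all genes had an unadjusted p under 0.05. The intervals allowed a level in moribund mice lower by as much as −1.44 for Mb and −0.81 for Myl7, and a difference of −0.38 to 0.39 for Sln.

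**Figure D3:**
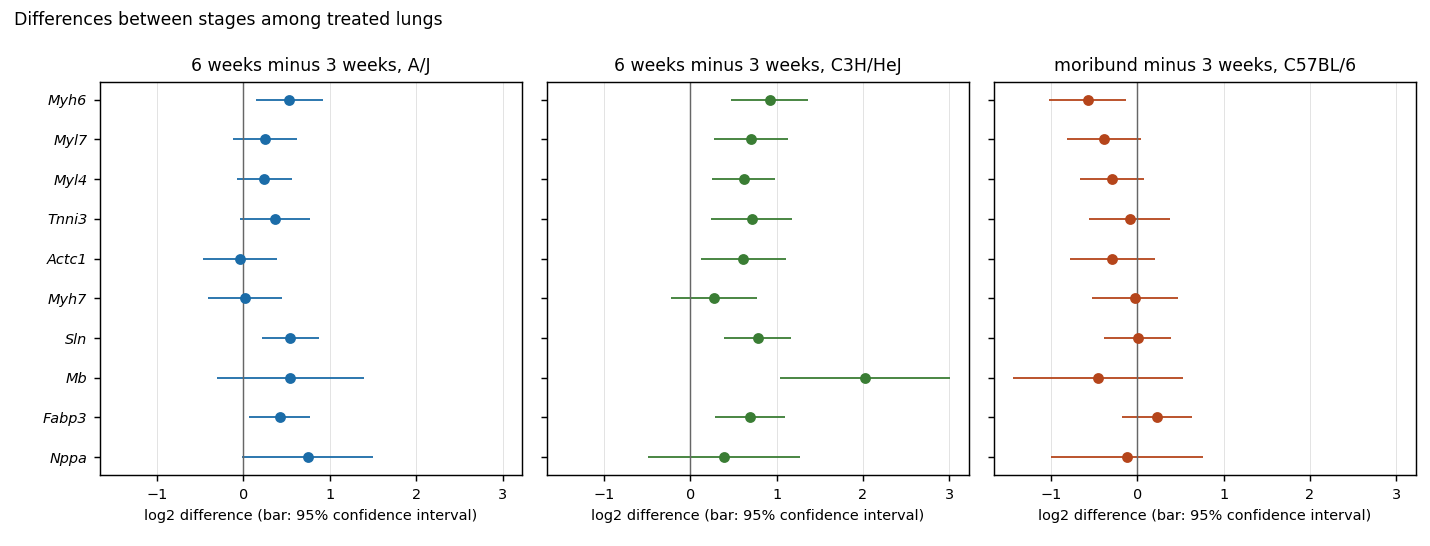
Log2 difference of each gene between stages among treated lungs, with 95% confidence intervals: 6 weeks minus 3 weeks in A/J (left) and C3H/HeJ (middle) and moribund minus 3 weeks in C57BL/6 (right). All 10 points lay above 0 in C3H/HeJ, with Mb at 2.02, while in C57BL/6 the interval of 9 of the 10 genes crossed 0.

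The control arrays of the strains differed in a few of the genes. Myh7 was lower in C57BL/6 than in A/J controls (log2 difference −2.03, SE 0.24, limma adjusted p = 7.72e-05) and lower than in C3H/HeJ controls (−1.47, SE 0.24, adjusted p = 0.00176). Both C57BL/6 controls lay below all A/J and C3H/HeJ arrays of any stage. Nppa was lower in C3H/HeJ than in A/J controls (−2.12, SE 0.42, adjusted p = 0.0166) and higher in C57BL/6 than in C3H/HeJ controls (1.67, SE 0.42, adjusted p = 0.0411). Sln was lower in C3H/HeJ than in A/J controls (−0.79, SE 0.18, adjusted p = 0.0474). In all, 1 of the 10 genes passed between C57BL/6 and A/J (2.82% of all genes), 2 between C57BL/6 and C3H/HeJ (2.54%) and 2 between C3H/HeJ and A/J (0.969%). The same control arrays entered the changes known when the genes were chosen, so these p-values are not independent of that choice.

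These strain calls depended on single arrays to different degrees. The Myh7 difference between C57BL/6 and A/J passed with any array left out. That between C57BL/6 and C3H/HeJ failed without the C3H/HeJ male control (−1.25) and passed without any other single array. The Nppa difference between C3H/HeJ and A/J failed without any 1 of the 4 control arrays concerned, at −2.02 to −2.20. The Nppa difference between C57BL/6 and C3H/HeJ and the Sln difference each failed without 12 of the 21 arrays, at 1.41 to 1.93 and −0.73 to −0.85. For both these were every control and 3 week A/J array and both C57BL/6 controls. For Nppa they also held the C3H/HeJ controls and the C57BL/6 arrays at 3 weeks, and for Sln the C3H/HeJ controls and the C3H/HeJ arrays at 6 weeks. The remaining strain differences of the 10 genes ran from −0.75 for Myl7 to 0.68 for Actc1 and did not pass.

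The arrays at 6 weeks entered no comparison at 3 weeks, but they are of treated lungs. Lower signal in treated lungs was known when the genes were chosen, so p-values at 6 weeks are not independent of that choice. In controls Actc1 was higher in C3H/HeJ than in A/J by 0.68 (SE 0.23) and did not pass. At 6 weeks it was higher by 1.19 (SE 0.23, limma adjusted p = 0.0179), and both C3H/HeJ arrays lay above both A/J arrays. It was 1 of 10 genes to pass, against 0.925% of all genes in either direction. The call failed without either A/J array at 6 weeks (1.23 and 1.14) and without the C3H/HeJ male array (0.87). Nppa differed by −1.03 (interval −1.92 to −0.15, adjusted p = 0.386), but by 0.03 without the A/J female array and by −2.10 without the A/J male one, where it passed. Myh7 (−0.78, adjusted p = 0.172) passed without either moribund array. The change at 3 weeks itself was compared between strains as a description only: C57BL/6 minus A/J was below 0 for 7 genes, among them Mb (−1.54, interval −2.83 to −0.24), Myh7 (−1.01, −1.67 to −0.35), Myl7 (−0.93, −1.49 to −0.36) and Myl4 (−0.71, −1.20 to −0.22). It was above 0 for Nppa (0.69, −0.48 to 1.85), Myh6 (0.24, −0.35 to 0.83) and Fabp3 (0.06, −0.48 to 0.60). By limma 0 of the 10 genes passed for C57BL/6 minus A/J (1.59% of all genes), C57BL/6 minus C3H/HeJ (0.275%) and C3H/HeJ minus A/J (0.011%). At an unadjusted p under 0.05 there were 4, 1 and 1 of the 10, and 1360, 1343 and 363 of all genes. For C57BL/6 minus A/J the number of the 10 that passed after adjustment was 1 without either moribund array.

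No gene of the 10 passed for sex. The sex term, which in treated groups also carries the dose, ran over the 10 genes from −0.52 (male minus female) for Nppa to 0.21 for Mb. By limma 0 of the 10 and 0.0551% of all genes passed. At an unadjusted p under 0.05 there were 1 of the 10, Nppa (interval −0.92 to −0.13), and 291 of all genes.

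Ordered by group, 9 of the genes were highest in a control group: Myh6, Tnni3, Myl7, Nppa and Sln in that of A/J, Fabp3, Myl4 and Actc1 in that of C3H/HeJ and Mb in that of C57BL/6. Myh7 was highest in A/J at 6 weeks. The moribund group was lowest for Mb, Myh6, Tnni3, Myl7, Myl4, Actc1 and Myh7. Highest levels in controls and lowest ones in treated groups are favoured by the choice of genes lower in treated lungs. Neighbours in these orders often did not differ beyond the pooled SD between arrays: of the 9 neighbouring pairs, 2 did for Actc1, 3 for Mb and Nppa, 4 for Myh7, 5 for Myh6, Sln, Myl7, Myl4 and Fabp3 and 6 for Tnni3. For Mb the C57BL/6 control, C3H/HeJ 6 week, C3H/HeJ control and A/J control groups could not be ordered. The pooled SD was 0.46 for Mb and 0.42 for Nppa on the log2 scale, and 0.17 to 0.24 for the other genes.

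Within groups the degree to which the genes moved together depended on the scaling of the arrays. Deviations from the group means over the 20 arrays of groups with more than 1 array gave a median pairwise correlation of 0.316 over the 45 pairs, from −0.493 to 0.824, and with the deposited scaling the median was 0.613. Without Myh7 and Nppa the median over the remaining 28 pairs was 0.546. These genes had the lowest correlations of deviations with the mean of the others, so leaving them out itself favours a higher median. Myl4 and Myl7 followed the mean of the other members most closely (0.848 and 0.846), and Myh7 did not (−0.194). All points share the normalization of the arrays, and the values are a description.

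Other genes of heart muscle were lower too. Of the separately listed markers on the array, 4 of 7 ventricular and 6 of 11 atrial and pulmonary vein genes were dim. The atrial genes Myl7, Myl4 and Sln, described above, are not on those lists. They were bright, with mean intensities over the arrays of 771, 696 and 301. Of 43 listed genes of both heart chambers, 40 were on the array, 31 were bright enough to test, and in the mean of the 3 strains at 3 weeks 16 fell (9.14% of all genes passed as lower) and 0 rose, with a median of −0.504 beside −0.0103 for all genes. Those passing as lower numbered 3 for A/J, 11 for C57BL/6 and 0 for C3H/HeJ, with medians of −0.398, −0.622 and −0.40. Atp2a2, the calcium pump of the sarcoplasmic reticulum, fell (−0.70, SE 0.08, limma adjusted p = 1.21e-05), the sarcomere spring Ttn (−0.91, SE 0.14, adjusted p = 0.00017), the muscle LIM protein Csrp3 (−0.65, SE 0.105, adjusted p = 0.000363) and Smpx (−0.84, SE 0.14, adjusted p = 0.000471) fell as well. Pln, the ventricular counterpart of Sln in restraining that pump, fell (−0.66, SE 0.12, adjusted p = 0.000867). Nppb, the sister hormone of Nppa, did not pass (0.39, SE 0.19, adjusted p = 0.19). The list was drawn up with results of these arrays known, so its count is no independent evidence.

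Of the ventricular light chains, Myl2, the regulatory light chain of the ventricle and counterpart of Myl7, was below the dim filter and ran from 7.68 to 79.8 over the 21 arrays. Myl3, the ventricular and slow skeletal counterpart of Myl4, ran from 8.9 to 147 on its tested probe set and did not pass at 3 weeks (−0.38, SE 0.24, adjusted p = 0.324). That probe set measured 110 and 113 in C3H/HeJ controls, against 47.8 and 26.9 in A/J and 39.8 and 87.6 in C57BL/6 controls, with the male array first. The 2 other Myl3 probe sets above the filter also had their highest values in C3H/HeJ, at 143 and 180 and at 150 and 135 in controls and up to 204 and 208 at 6 weeks. Of the 7 ventricular genes 3 were tested (Hand1, Myl3 and Kcnip2) and 0 passed in the mean of the strains at 3 weeks. Their median was 0.104, with Myl3 itself at −0.38. The highest value on any array was 11.8 for Irx4, 16.4 for Hey2 and 32.1 for Kcnd2.

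Markers of atrial and pulmonary vein muscle gave 1 fall among 5 tested of 14 listed, where 9.14% of all genes fell, with a median of −0.199. By strain 0 passed as lower in A/J (median −0.0738), 2 in C57BL/6 (−0.203) and 0 in C3H/HeJ (0.302). The 1 fall in the mean of the strains was that of Tbx3 (−0.39, SE 0.10, adjusted p = 0.0105), a T-box repressor of the conduction system that is also expressed outside muscle. Dkk3 (−0.21), Kcnj3 (0.19) and Nr2f2 (−0.20) did not pass. Gja5, Shox2, Kcnj5, Kcna5, Cacna1g and Bmp10 were below the dim filter, with highest values of 8.15 for Gja5 and 8.59 for Shox2. In C57BL/6 the summed intensity of this list was 1442 to 1457 in control, 979 to 1122 at 3 weeks and 1093 to 1215 in moribund mice, with no overlap between control and treated arrays, and that of the 10 cardiac genes was 5265 to 5345, 1712 to 2354 and 1479 to 1907. In A/J the list was 1065 to 1082 in control and 910 to 1090 at 3 weeks, and the cardiac genes were 5974 to 7149 and 3548 to 3886. In C3H/HeJ the list was 1068 to 1078 in control and 1068 to 1234 at 3 weeks, while the cardiac genes were 5220 to 5952 and 2419 to 3342. By median over the arrays, the brightest genes of this list were Tbx3 (263), Dkk3 (236), Nr2f2 (236), Pam (173) and Kcnj3 (99.7). Its dim genes had medians of at most 29.3 (Bmp10), so the sum says little about them. Myl7, Myl4 and Sln, described above as atrial, are not on this list and were lower at 3 weeks in every strain. Whether the sum follows pulmonary vein muscle was not tested. The part of either chamber in the measured fall was not tested.

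Skeletal muscle genes stood out on single arrays rather than in groups. Of 25 on the array 22 were dim, and of the 3 tested 0 passed at 3 weeks. Their summed intensity was 1607 on the C57BL/6 female control against 553 on the male one, 2039 on the C3H/HeJ female array at 6 weeks against 713 on the male one, 1321 on the C3H/HeJ male array at 3 weeks against 648 on the female one, and 1248 on the A/J male array at 80 mg/kg. Acta1, skeletal alpha actin, measured 436 and 5.11 on the female and male C57BL/6 controls and 491 and 63.4 on the female and male C3H/HeJ arrays at 6 weeks. Tnni2 and Tnni1, the fast and slow skeletal counterparts of Tnni3, were below the dim filter, Tnni2 at up to 134 and Tnni1 at up to 28.7. In 7 of the 8 groups of 2 arrays, Mb was higher on the array with more skeletal muscle signal, and the other 9 genes were so in 4 to 6 of 8. In a setting chosen after seeing the data, the C57BL/6 female control and the C3H/HeJ female 6 week array were left out. For the mean of the strains at 3 weeks this left only the male C57BL/6 control, so no count of genes passing is given. The C3H/HeJ array left out is not part of that comparison. The C3H/HeJ male array at 3 weeks and the A/J male array at 80 mg/kg stayed in. The part of skeletal muscle RNA in the level of Mb was not tested.

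Smooth muscle genes, which mark vessel and airway walls, fell in 3 of 9 tested, where 9.14% of all genes did, with a median of −0.156. They were Myh11 (−0.74, SE 0.13, adjusted p = 0.000665), Ppp1r14a (−0.62, SE 0.11, adjusted p = 0.000719) and Cnn1 (−0.62, SE 0.12, adjusted p = 0.00159). Acta2, the smooth muscle counterpart of Actc1, did not pass (−0.10, SE 0.09, adjusted p = 0.517) and measured 1224 to 2409 over the arrays.

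**Figure D4:**
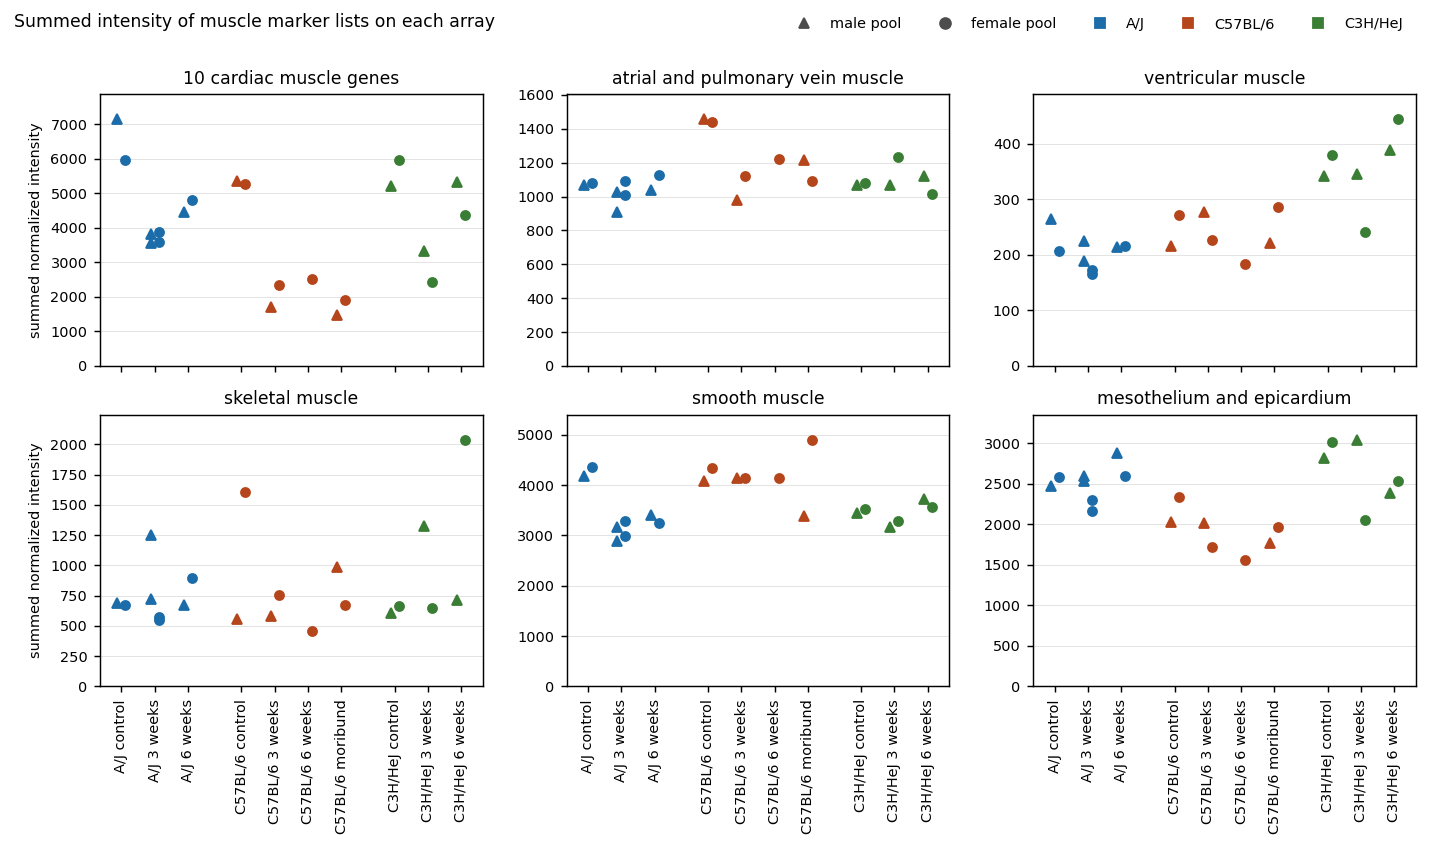
Summed normalized intensity of 6 gene lists on each of the 21 arrays (linear axes from 0), grouped by strain and stage, with triangles for male and circles for female pools. The 10 cardiac genes were at 1712 to 3886 at 3 weeks against 5220 to 7149 in controls, whereas skeletal muscle was high on single arrays, with 2039 on the C3H/HeJ female array at 6 weeks.

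By their pattern over the 21 arrays, the genes most like the mean of the 10 were Tppp3 (Pearson r 0.936), Pigp (0.936), Cd79a (0.935), Csrp3 (0.925), Syne2 (0.924), Pwwp3a (0.922), Syne1 (0.92), Cd79b (0.916), Gstm1 (0.915) and Bmp6 (0.914). Only Csrp3 is on the heart muscle list; Cd79a and Cd79b encode the signalling chains of the B cell receptor. After group means were taken out, r over 20 arrays was 0.216 for Syne2 to 0.582 for Syne1. Among the members themselves, the correlation with the mean of the others over the 21 arrays was 0.979 for Tnni3, 0.936 for Sln and 0.926 for Myh6, and lowest for Nppa (0.317).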

How the data were processed

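The authors' deposited values were intensity per probe set on a linear scale, 1 column per array; how probes were summarised and scaled is unstated in the labels. Per the labels, Trizol RNA was pooled over 3 to 5 mice. Of 22690 probe sets, 64 controls were left out; of the rest 20380 carried 1 symbol, 691 several and 1555 none, from the array's annotation, and 20379 were matched to a current symbol. After quantile normalization, 16 was added and log2 taken. The dimmest 33.3% were left out, and the brightest probe set of each gene kept. All 21 arrays entered 1 limma 3.58.1 model (R 4.3.3), with a mean for each strain and stage and a sex term (eBayes with trend, 10 residual degrees of freedom, 16.8 after shrinkage). Tests were two-sided, with Benjamini-Hochberg adjustment over 9082 genes, with a call at an adjusted p under 0.05; the procedure was tested on simulated data. Normexp could not be applied, since no background intensities were used here, and no scan date or slide was used.

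The members and gene lists (heart muscle of both chambers, atrial and pulmonary vein, ventricular, skeletal and smooth muscle, cartilage, fat, thymus, mesothelium and epicardium, nerve) were chosen with earlier results of these data known. Named were all members, up to 4 tested genes of each list, taken by smallest p for the mean of the 3 strains at 3 weeks, the 10 genes most like the members over the arrays, and 8 isoforms. Ranges of dim list genes named beside them were chosen after their values were seen. Alternatives were the deposited scaling, scaling to 1 median, offsets of 1 and 64, no dim filter or one at 50%, no sex term, array weights, every probe set, a threshold of 0.10, A/J without its lower doses, only the arrays of the strains compared, and leaving out each array. The Gapdh ratio or array brightness as a covariate, leaving out 2 arrays with high skeletal muscle signal, and differences between strains in the 3 week change were added after the data were seen.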

Additional observations from a re-analysis of the deposited data

How the results depend on the processing

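No paired analysis was possible because every array was a pool of its own mice and replicate numbers followed the accession order only. Across the alternatives the number of the 10 genes lower at 3 weeks in the mean of the strains stayed at 9 or 10, the members below both controls at 3 weeks numbered 28 over the 3 strains in every scaling and offset run, and 0 passed for moribund against 3 weeks and for sex in every fit. Single arrays left out gave 9 to 10 in the mean of the strains, 0 to 2 for 6 weeks C3H/HeJ against A/J, 0 to 1 for 6 against 3 weeks in A/J, 0 to 2 for 6 against 3 weeks in C3H/HeJ, 0 to 2 for control C3H/HeJ against A/J, 0 to 2 for control C57BL/6 against C3H/HeJ, 1 in every case for control C57BL/6 against A/J, and 23 to 30 calls over the other lists (27 with all arrays). A group left with 1 array was assumed to vary like the others. For 6 against 3 weeks in C3H/HeJ 3 genes passed at an adjusted p under 0.10 and 1 with the deposited scaling. For control C3H/HeJ against A/J 1 passed with A/J at 2 doses, a covariate for brightness or for Gapdh, the deposited scaling, every probe set, no dim filter, an offset of 1 and without the 2 arrays of high skeletal signal, and 4 with array weights. For control C57BL/6 against C3H/HeJ 1 passed with A/J at 2 doses, brightness as a covariate, no dim filter, no sex term and without those 2 arrays, and 4 with array weights, which gave 3 for C57BL/6 against A/J. The median pairwise correlation was 0.613 with the deposited scaling. Nppa at 6 weeks, C3H/HeJ minus A/J, turned from −1.03 to 0.027 without the A/J female array and was −2.095 without the male one; the cause was not tested. The number of members called against control at 3 weeks ran from 1 to 8 in A/J, 0 to 8 in C3H/HeJ and 5 to 10 in C57BL/6 over all alternatives, and that of all genes from 27 to 231 (main 97), 68 to 429 (259) and 393 to 1836 (1186), and in moribund mice from 515 to 1962 (1390). The 9 became 10 with the deposited scaling. All-gene counts also ranged from 0 to 51 (main 0) for moribund against 3 weeks, 1 to 6 (2) and 3 to 57 (16) for 6 against 3 weeks in A/J and C3H/HeJ, 26 to 135 (84) for 6 weeks C3H/HeJ against A/J, 65 to 755 (256), 80 to 704 (231) and 27 to 194 (88) between the controls of C57BL/6 and A/J, C57BL/6 and C3H/HeJ, and C3H/HeJ and A/J, and 2 to 8 (5) for sex. Comparing 2 arrays with 2 gave a median SE of 0.198.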

Other observations

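Among tissues that border the lung, fat genes fell in 3 of 7 tested in the mean of the 3 strains at 3 weeks, where 9.14% of all genes fell (median −0.543 beside −0.0103 for all genes): Thrsp, a regulator of lipid synthesis (−1.60, SE 0.18, limma adjusted p = 7.22e-06), Adipoq, the fat cell hormone adiponectin (−1.25, SE 0.23, adjusted p = 0.00102) and Car3 (−1.14, SE 0.165, adjusted p = 0.000118). Of 3 cartilage genes tested Chad fell (−1.53, SE 0.33, adjusted p = 0.00436) and Col9a1 rose (0.40, SE 0.10, adjusted p = 0.0116). Of 4 mesothelial and epicardial genes Upk3b fell (−0.84, SE 0.205, adjusted p = 0.0094), while Msln (0.36) and Krt19 (−0.09) did not pass. Of 4 nerve genes Pmp22, which other lung cells also express, fell (−0.24, SE 0.05, adjusted p = 0.004). Against the same 9.14%, a single fall among 3 or 4 genes is a small count. Of 2 thymus genes 0 passed by limma, Foxn1 with 0.42 (adjusted p = 0.0855) and Prss16 with 0.20.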
